A study of Mus musculus with 2 samples.

Results

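Il2, Il2ra and Ccnd2, 3 of the 2000 genes in the files, were followed through T cells of transplanted mice given an antibody against IL-2 or the drug tacrolimus. They were taken by name, and all 3 were found in the files of both treatments. The data are single-cell RNA-seq of spleen cells: lethally irradiated BALB/C recipients were injected with spleen and bone marrow cells of WT C57BL/6 donors, treated with anti-IL-2 mAb or Tacrolimus from day 0 to day 6, and sampled on day 6. Each treatment had 1 library, so no difference between treatments has a replicate check, and a treatment cannot be told apart from its library. Intervals of observed shares of cells are exact 95% binomial (Clopper-Pearson) intervals, and intervals of a difference are built from share intervals. All cover counting error only. For shares thinned or standardised for depth, the same formula treats the adjusted share as a count out of all cells used. Such intervals are approximate, and those of standardised shares can be too narrow. Standardised differences called within or beyond counting error rest on these approximate intervals. The share that a count of 0 allows is instead given as 3 cells of the number examined, a one-sided limit that lies below the upper end of the exact interval.

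Il2 encodes interleukin-2, a growth factor that T cells, mostly of the CD4 kind, release after their antigen receptor is triggered. Il2ra encodes the alpha chain of its receptor (CD25), which gives the receptor high affinity for IL-2, is induced by activation and by IL-2 itself, and is kept on regulatory T cells. Signals from this receptor run through JAK kinases to the transcription factor STAT5. Ccnd2 encodes cyclin D2, a partner of the kinases CDK4 and CDK6 that carries cells through G1, and it is a known STAT5 target in lymphocytes. Tacrolimus blocks calcineurin and so the activation of NFAT, a factor that Il2 transcription depends on, while the antibody binds the secreted cytokine.

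In mm10 (GENCODE M21) Il2 lies on chromosome 3 from 37120523 to 37125959 on the minus strand, Il2ra on chromosome 2 from 11642807 to 11693193 on the plus strand and Ccnd2 on chromosome 6 from 127125162 to 127152193 on the minus strand, all as protein-coding genes. The promoter windows of Il2 and Il2ra are shown because NFAT, the factor that tacrolimus keeps inactive, has sites upstream of these genes. RefSeq (GRCm38.p6) gave the 250 bases before its own start of 2 of the 3 genes, read 5′ to 3′ on the gene's own strand. The RefSeq starts differ by some bases from the GENCODE positions above. Capitals mark GGAAA, the core letters of an NFAT site, or TTTCC, the same letters on the other strand. The windows are chr3:37125955-37126204 (minus strand) and chr2:11642542-11642791 (plus strand).
Il2: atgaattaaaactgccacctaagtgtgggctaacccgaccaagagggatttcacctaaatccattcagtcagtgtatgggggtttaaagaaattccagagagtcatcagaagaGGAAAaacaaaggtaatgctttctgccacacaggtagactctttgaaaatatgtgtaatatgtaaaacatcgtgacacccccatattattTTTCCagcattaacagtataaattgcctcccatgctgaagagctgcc
Il2ra: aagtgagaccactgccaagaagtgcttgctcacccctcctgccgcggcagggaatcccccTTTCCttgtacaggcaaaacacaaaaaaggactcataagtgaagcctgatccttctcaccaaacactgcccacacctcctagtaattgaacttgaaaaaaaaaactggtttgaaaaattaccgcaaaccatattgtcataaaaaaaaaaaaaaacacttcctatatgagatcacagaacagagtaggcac
The Il2 window held these letters 2 times, starting 137 and 47 bases before the gene's RefSeq start. The Il2ra window held them 1 time, starting 190 bases before the RefSeq start of Il2ra. Of 32851 promoter windows of the same length, 55.6% held the letters at least 1 time and 21.4% at least 2 times. The STAT5 core TTCNNNGAA, which was searched on both strands and can overlap GGAAA in part, was in neither window and in 7.02% of all windows. A match of letters is a description and not a bound site.

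There were 1551 cells from the anti-IL-2 library and 1688 from the tacrolimus library, and 4 cell barcodes occurred in both. Cells under 200 detected genes were left out, and 1110 anti-IL-2 and 1375 tacrolimus cells passed as T cells, with medians of 12960 and 13250 UMIs (unique molecules). Cd5 or Cd6, T-cell surface genes and the 2 measured of 11 pan-T markers, marked 87.1% of these anti-IL-2 and 83.6% of these tacrolimus cells. Other lineages left traces: at least 1 of 12 pancreatic acinar genes was in 8.65% of anti-IL-2 and 72.4% of tacrolimus T cells. The CD4 gate (Cd4 seen, Cd8a and Cd8b1 not) held 289 anti-IL-2 and 286 tacrolimus cells, and the CD8 gate (the reverse) held 718 and 964. A cell was called dividing when it showed at least 20% of 46 division genes. By this rule 22.1% of anti-IL-2 and 72.4% of tacrolimus CD4-gate cells were dividing, as were 66.7% and 87.8% of CD8-gate cells. The anti-IL-2 values were batch-integrated by the authors, so UMIs were recovered after an estimated shift. Shares of cells are therefore the measure throughout, and UMI numbers of anti-IL-2 cells are estimates.

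Il2 was rare and lay mostly in the CD4 gate. Among T cells, 11 of 1110 in the anti-IL-2 library carried it (0.991%, interval 0.496 to 1.77%), and 8 of 1375 in the tacrolimus library did (0.582%, interval 0.252 to 1.14%). In the anti-IL-2 library 9 of the 289 CD4-gate cells carried it (3.11%, 1.43 to 5.83%), against 1 of the 718 CD8-gate cells (0.139%, 0.00353 to 0.774%). In the tacrolimus library it was in 6 of the 286 CD4-gate cells (2.10%, 0.774 to 4.51%) and 2 of the 964 CD8-gate cells (0.207%, 0.0251 to 0.747%). Standardised over 3 classes of depth, the CD4 share exceeded the CD8 share by 2.31 points in anti-IL-2 cells (interval 0.725 to 4.83), and at 1 fixed depth of 7320 UMIs it did so by 1.73 points in tacrolimus cells (0.351 to 4.23). Among cells of other lineages with no T-cell marker, Il2 was in 0 of 48 anti-IL-2 cells (median 7513 UMIs), which allows a share of up to 6.25%, and in 0 of 42 tacrolimus cells (median 9651 UMIs), which allows up to 7.14% (the exact intervals end at 7.40% and 8.41%). These groups are too small to set a background for a gene this rare.

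Of the 9 anti-IL-2 CD4-gate cells with Il2, 8 were not dividing, and the 1 dividing cell showed 26.1% of the division genes. Non-dividing CD4-gate cells thus carried Il2 in 3.56% of 225 anti-IL-2 cells (interval 1.55 to 6.89%) and 5.06% of 79 tacrolimus cells (interval 1.40 to 12.5%). Dividing CD4-gate cells carried it in 1 of 64 anti-IL-2 cells and 2 of 207 tacrolimus cells. The intervals of the dividing and non-dividing shares overlapped in both libraries. In the CD8 gate the 1 anti-IL-2 cell with Il2 was not dividing, and both tacrolimus cells were.

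The cells with Il2 carried few copies of it. In the anti-IL-2 library 2 CD4-gate cells had 2 Il2 UMIs and all other carriers had 1, among them 1 cell set aside for its 3 detected markers of other lineages. The highest count in the study was 4 Il2 UMIs, in a dividing tacrolimus CD4-gate cell of 13920 UMIs that also held 3 Il2ra and 5 Ccnd2 UMIs and 8 of Tnfrsf4, which encodes the costimulatory receptor OX40. A dividing tacrolimus CD8-gate cell with 2 Il2 UMIs held 60 Tnfrsf4 UMIs, 7 of Ccnd2 and 1 of Il2ra. Its CD8 label rested on 2 Cd8b1 UMIs and 0 of Cd8a. The other tacrolimus CD8-gate cell with Il2 had 13 Cd8b1 UMIs and 1 of Ifng.

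The cells with Il2 were next set beside the other CD4-gate cells. Il2ra was seen in 1 of the 9 anti-IL-2 CD4-gate cells with Il2 and in 9.29% of the 280 others. In the tacrolimus library it was in 3 of the 6 CD4-gate cells with Il2 and in 27.1% of the 280 others. Cd40lg, which encodes the helper ligand CD40L, was in 7 of the 9 anti-IL-2 cells with Il2 (57.9% of the others) and in 5 of the 6 tacrolimus cells with Il2 (63.9% of the others). Tcf7, which encodes TCF-1, a factor of naive and memory T cells, was in 8 of the 9 (67.5% of the others) and in 4 of the 6 (14.3% of the others). Foxp3, the defining factor of regulatory T cells, was in 0 of the 9 and 0 of the 6. With so few cells these counts are a description.

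**Figure D1:**
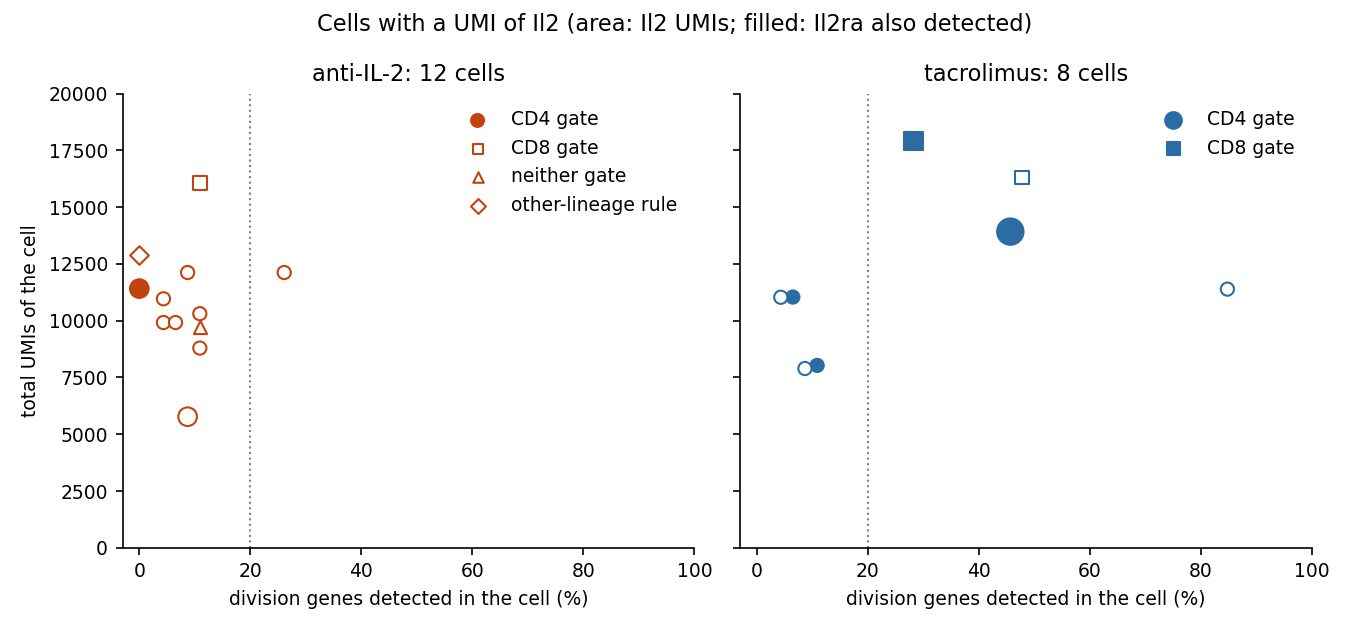
Each symbol is a kept cell with at least 1 Il2 UMI (12 anti-IL-2 cells at left, 8 tacrolimus cells at right). The x axis gives the percent of 46 division genes detected, the y axis the cell's total UMIs, the area the Il2 UMIs, and filled symbols also had Il2ra. The dotted line is the 20% limit for dividing, and 1 of the 12 anti-IL-2 cells lies right of it, against 4 of the 8 tacrolimus cells.

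Of the 4 classes made by gate and division, dividing CD8-gate cells had the highest unadjusted share of Il2ra in both libraries. In anti-IL-2 cells it was seen in 22.3% of 479 dividing CD8-gate cells (18.7 to 26.3%), 18.8% of 64 dividing CD4-gate cells (10.1 to 30.5%), 7.95% of 239 non-dividing CD8-gate cells (4.85 to 12.1%) and 6.67% of 225 non-dividing CD4-gate cells (3.78 to 10.8%). In tacrolimus cells it was in 44.4% of 846 dividing CD8-gate cells (41.1 to 47.9%), 29.5% of 207 dividing CD4-gate cells (23.3 to 36.2%), 23.7% of 118 non-dividing CD8-gate cells (16.4 to 32.4%) and 22.8% of 79 non-dividing CD4-gate cells (14.1 to 33.6%). In that order the dividing CD8-gate and CD4-gate intervals overlap in anti-IL-2 cells and stand apart in tacrolimus cells, and the neighbours below them overlap in the tacrolimus library. In the anti-IL-2 library the intervals of dividing CD4-gate cells and non-dividing CD8-gate cells overlap.

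Other-lineage cells were taken as a rough background for Il2ra, though that they lack the gene was not tested. They gave few detections, in small groups. Il2ra was in 1 of 48 anti-IL-2 other-lineage cells without T-cell markers (2.08%, 0.0527 to 11.1%) and in 0 of 42 such tacrolimus cells, which allows up to 7.14% (exact interval 0 to 8.41%). The anti-IL-2 interval covers the shares of non-dividing CD8-gate (7.95%) and CD4-gate cells (6.67%), so these are not shown to exceed background. These other-lineage cells were also shallower than T cells (median 7513 against 12960 UMIs in the anti-IL-2 library and 9651 against 13250 in the tacrolimus library). Cells that met the other-lineage rule but did hold a T-cell marker, and were left out of both gates, carried Il2ra in 34.2% of 79 anti-IL-2 cells and 30.9% of 55 tacrolimus cells, and in 37.1% of the 62 anti-IL-2 ones that were dividing. Cells with both Cd4 and a Cd8 gene, which may be pairs of cells, carried it in 22.4% of 85 anti-IL-2 cells and 28.1% of 89 tacrolimus cells. Both left-out classes thus reached shares in anti-IL-2 cells as high as dividing CD8-gate cells.

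**Figure D2:**
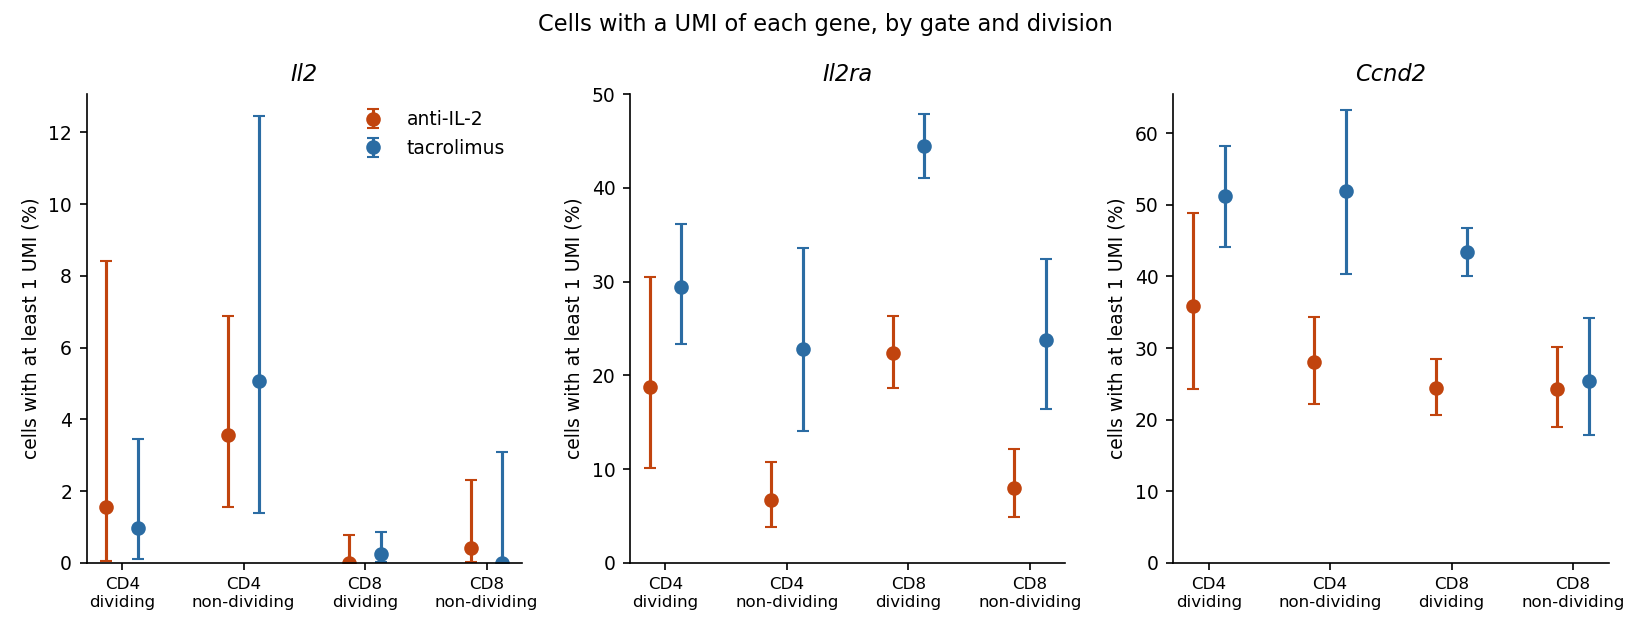
Points give the percent of cells with at least 1 UMI of Il2, Il2ra or Ccnd2 (y axis, unthinned) in each gate and division class (x axis), with exact 95% intervals, for anti-IL-2 (red, left of each pair) and tacrolimus (blue). Of the 4 classes plotted, Il2 has its highest share in non-dividing CD4-gate cells and Il2ra in dividing CD8-gate cells (22.3% and 44.4%), and Ccnd2 is at 24.3% and 25.4% in non-dividing CD8-gate cells.

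Depth differed between these classes, and dividing cells held more UMIs (median 18465 in anti-IL-2 and 14942 in tacrolimus CD8-gate cells, against 11643 and 8294 in non-dividing ones). At the fixed depth of 7320 UMIs, which 257 of 286 CD4-gate and 875 of 964 CD8-gate tacrolimus cells reached, Il2ra was in 20.7% of CD4-gate and 28.4% of CD8-gate cells, a difference of -7.74 points (-13.4 to -1.51), against -14.3 points unthinned. In anti-IL-2 cells the same difference, standardised over 3 classes of depth, was -1.12 points (-5.93 to 4.16), against -8.21 points unstandardised. The difference between gates was thus larger than counting error in tacrolimus cells at fixed depth and within counting error in anti-IL-2 cells after standardising, which leaves depth unequal inside each class. Counting only cells with at least 2 Il2ra UMIs, it was 4.48 points in anti-IL-2 cells (0.612 to 8.94) and -1.28 points in tacrolimus cells (-4.67 to 2.88), so the order of the gates depended on this limit.

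In the CD8 gate of the anti-IL-2 library Il2ra was in more dividing than non-dividing cells. There the standardised share was 17.9% in dividing and 9.57% in non-dividing cells, a difference of 8.37 points (2.80 to 13.4). With dividing set at 40% of the division genes it was 4.94 points (-0.315 to 10.1), within counting error. In tacrolimus CD8-gate cells at fixed depth it was 28.9% in dividing and 23.6% in non-dividing cells, and the difference of 5.25 points (-5.74 to 14.5) was within counting error, although it was 20.7 points unthinned (11.4 to 28.8) and 7.23 points (1.47 to 9.82) when at least 2 UMIs were needed. In the CD4 gate the differences were -2.17 points in anti-IL-2 cells when standardised (-12.0 to 10.2) and -0.930 points in tacrolimus cells at fixed depth (-14.1 to 10.3), both within counting error, and both changed sign under other settings. The anti-IL-2 CD4-gate shares were 16.2% in dividing and 18.3% in non-dividing cells when standardised, and 18.8% and 6.67% (12.1 points, 2.50 to 24.2) when not. The 18.3% rests on 15 Il2ra-positive cells of 225, weighted by depth class. With dividing set at 10% of the division genes, the tacrolimus CD8-gate difference was -7.13 points (-24.3 to 7.79).

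Across finer classes of division, Il2ra was in 0 of 39 anti-IL-2 CD8-gate cells that showed under 5% of the division genes, which allows up to 7.69% (exact interval 0 to 9.03%), and in 31.9% of the 182 that showed at least 80% (25.2 to 39.2%). The tacrolimus CD8 gate did not run in 1 direction. Il2ra was in 13 of its 26 cells with under 5% of the division genes (interval 29.9 to 70.1%), in 9 of the 64 cells with 10 to 20% (14.1%, 6.64 to 25.02%), and in 54.2% of the 360 cells with at least 80% (48.9 to 59.4%). The first of these groups overlaps the last and stands apart from the middle one. The median depths were 8233, 8765 and 19837 UMIs, so the cells of the first 2 groups differed little in depth.

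**Figure D3:**
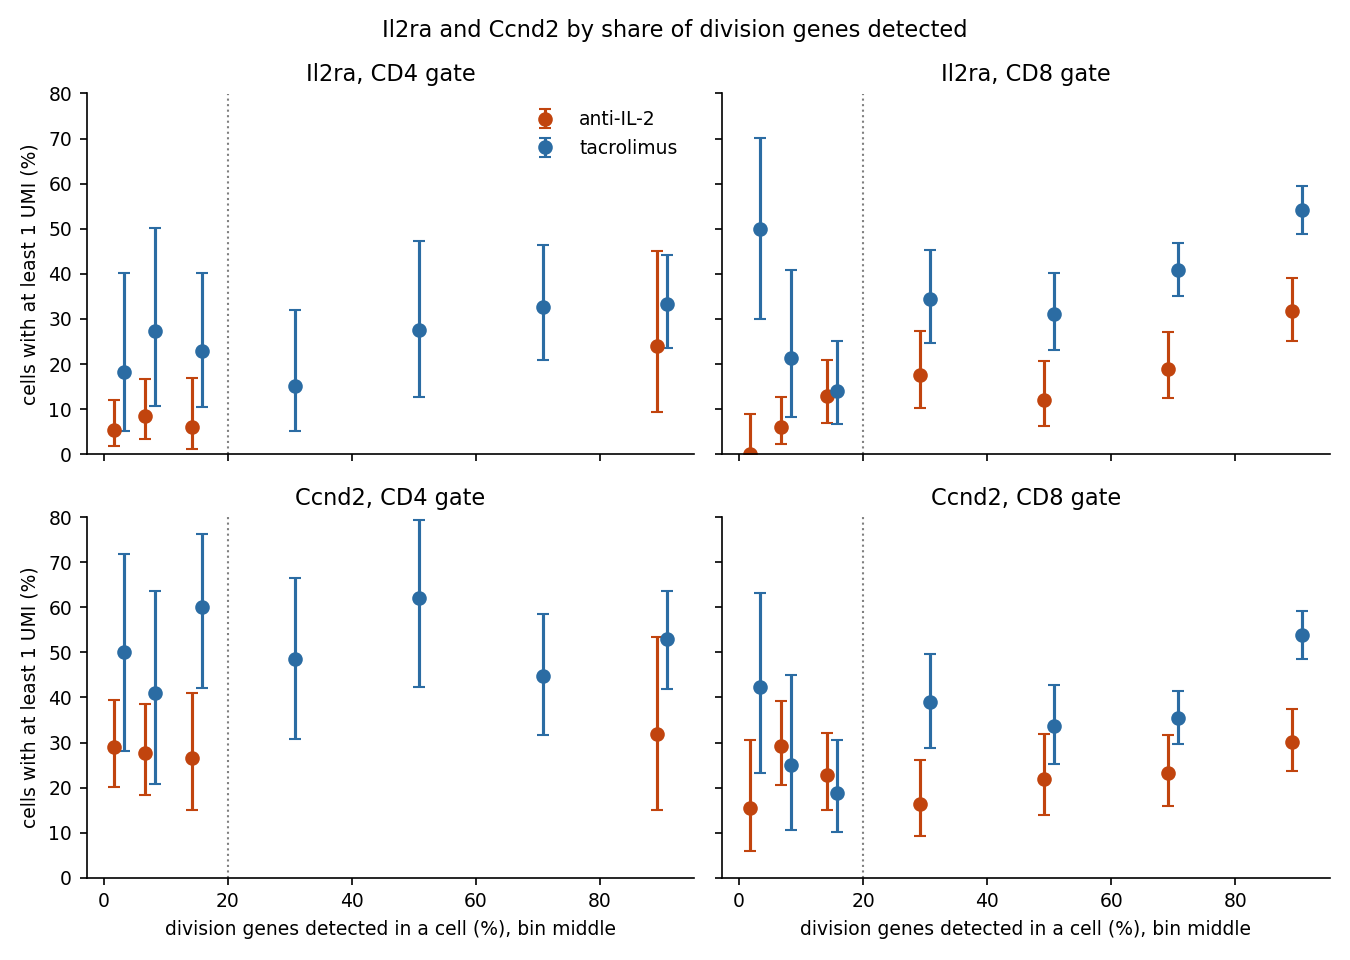
Points give the percent of cells with at least 1 UMI of Il2ra (top) or Ccnd2 (bottom) in the CD4 gate (left) and CD8 gate (right), by the percent of division genes a cell showed (x axis, bin middle, bins of at least 20 cells), with exact 95% intervals, for anti-IL-2 (red) and tacrolimus (blue). The dotted line is the 20% limit for dividing, and the tacrolimus CD8-gate points of Il2ra stand for 13 of 26 cells in the lowest bin, 9 of 64 in the bin from 10 to 20% and 54.2% of cells in the highest.

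A few cells held much of the Il2ra RNA. In the anti-IL-2 CD4 gate 7 of 289 cells had 5 or more Il2ra UMIs and together held 60 of the 93 UMIs (64.5%). In the tacrolimus CD4 gate 10 of 286 cells did so and held 95 of 209 UMIs (45.5%). In the CD8 gate such cells were 11 of 718 anti-IL-2 cells, with 30.1% of the Il2ra UMIs, and 56 of 964 tacrolimus cells, with 46.8%. Recovered UMI numbers of anti-IL-2 cells may be too low, so these numbers describe each library and do not compare the 2 libraries. All of the CD8-gate cells with 5 or more were dividing in both libraries, as were all 10 tacrolimus CD4-gate cells, whereas 3 of the 7 anti-IL-2 CD4-gate cells were not.

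Few of these CD4-gate cells had Foxp3. Of the 7 anti-IL-2 CD4-gate cells with 5 or more Il2ra UMIs, 1 had Foxp3, 3 had Ikzf2 (the regulatory T-cell factor Helios), 1 had Izumo1r (folate receptor 4) and 0 had Gpr83, while 7 had Tnfrsf4, 7 had Ctla4 (an inhibitory receptor) and 6 had Capg (an actin-capping protein). Of the 10 such tacrolimus cells, 0 had Foxp3, 2 had Ikzf2, 1 had Izumo1r and 0 had Gpr83, while 10 had Tnfrsf4, 9 had Ctla4 and 8 had Capg. Tnfrsf4 was in 44.3% of the anti-IL-2 and 43.5% of the tacrolimus CD4-gate cells without Il2ra, and Ctla4 in 69.5% and 65.2%. In these cells without Il2ra, Capg was in 42.75% and 71.5%, Ikzf2 in 30.15% and 23.2%, and Izumo1r in 24.8% and 15.9%. Foxp3 was in 2 of the 262 anti-IL-2 and 0 of the 207 tacrolimus ones. With 7 and 10 cells these counts are a description. Foxp3 itself was in 3 anti-IL-2 and 2 tacrolimus CD4-gate cells, of which 1 and 2 had Il2ra. A missing Foxp3 UMI does not show that the gene was off.

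**Figure D4:**
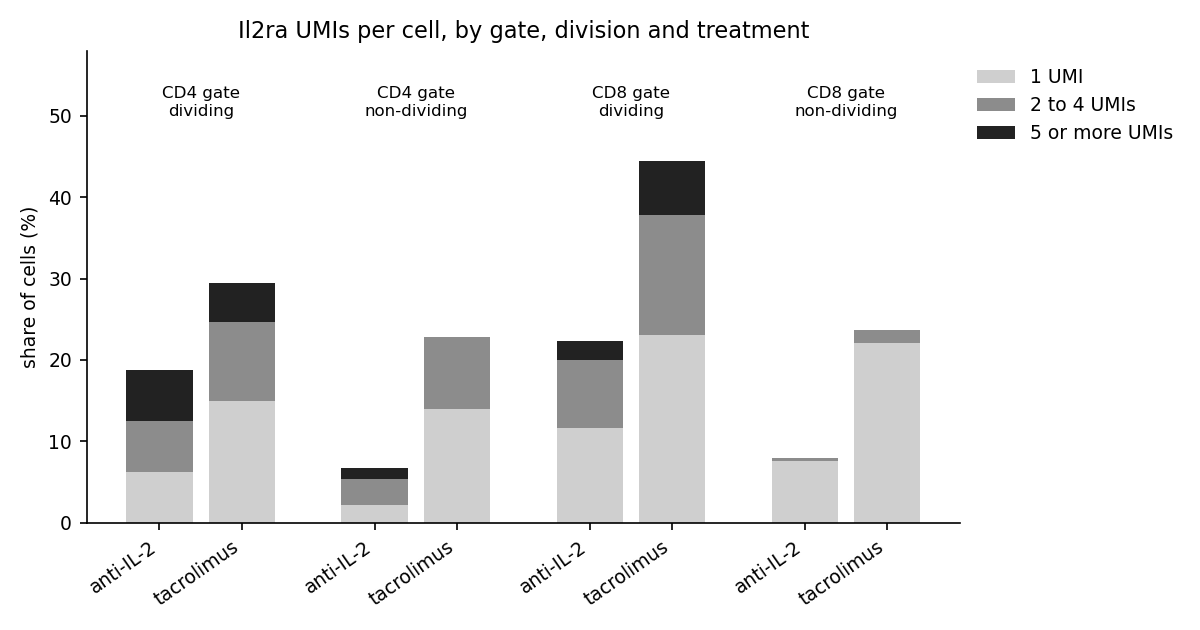
Stacked bars give the percent of cells (y axis, from 0) with 1, 2 to 4, or 5 or more Il2ra UMIs in each gate and division class, anti-IL-2 left of tacrolimus. UMI numbers of anti-IL-2 cells are estimates that may be too low. Cells with 5 or more are absent from non-dividing CD8-gate cells of both libraries (0 of 239 and 0 of 118) and present in non-dividing CD4-gate cells of the anti-IL-2 library (3 of 225).

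Ccnd2 had another distribution, with the higher shares in the CD4 gate. In anti-IL-2 cells it was seen in 35.9% of dividing CD4-gate (24.3 to 48.9%), 28.0% of non-dividing CD4-gate (22.2 to 34.4%), 24.4% of dividing CD8-gate (20.6 to 28.5%) and 24.3% of non-dividing CD8-gate cells (19.0 to 30.2%), 4 shares whose neighbours overlap. In tacrolimus cells it was in 51.9% of non-dividing CD4-gate (40.4 to 63.3%), 51.2% of dividing CD4-gate (44.2 to 58.2%), 43.4% of dividing CD8-gate (40.01 to 46.8%) and 25.4% of non-dividing CD8-gate cells (17.9 to 34.3%). There the non-dividing CD8-gate share stands below the other 3. The CD4 gate exceeded the CD8 gate by 8.86 points in anti-IL-2 cells standardised over depth classes (interval 2.63 to 15.3), against 5.39 points unstandardised (-0.791 to 11.8), and by 13.6 points in tacrolimus cells at fixed depth (interval 6.88 to 20.5), so the order of the gates was opposite to that of Il2ra in tacrolimus cells.

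With depth allowed for, Ccnd2 was in more dividing than non-dividing cells beyond counting error in 0 of the 4 sets of library and gate. At fixed depth it was in 35.6% of dividing and 51.3% of non-dividing tacrolimus CD4-gate cells, a difference of -15.6 points (-29.9 to -0.993), which was -0.691 points unthinned. This difference was within counting error with dividing set at 10% (-8.02 points, -27.8 to 11.2), with 2 UMIs needed for a gate (-16.1 points, -32.1 to 0.285) and with all lineage markers in the T-cell rule (-11.0 points, -26.2 to 4.14). In anti-IL-2 CD8-gate cells the standardised shares were 19.2% in dividing and 26.8% in non-dividing cells (-7.63 points, -14.6 to -0.930), which became 0.158 points without standardising. It too was within counting error with dividing set at 10% (-5.53 points, -14.3 to 2.37) or 40% (-5.14 points, -11.4 to 1.04), with no minimum of detected genes (-5.02 points, -11.2 to 0.878) and with all lineage markers (-7.84 points, -16.0 to 0.0568). The anti-IL-2 CD4-gate difference of 7.13 points was within counting error, and its interval (-5.24 to 20.9) leaves room for more Ccnd2 in dividing cells. The tacrolimus CD8-gate difference was -0.391 points at fixed depth (-11.6 to 9.17) and 18.0 points unthinned (8.50 to 26.3). Without thinning Ccnd2 was in 11 of the 26 tacrolimus CD8-gate cells with under 5% of the division genes (42.3%, 23.35 to 63.1%). It was in 18.8% of those with 10 to 20% (10.1 to 30.5%) and in 53.9% of those with at least 80%. The median depths of these groups are given above for Il2ra. No class here gives a background for Ccnd2, since other-lineage cells without T-cell markers carried it as well, at 58.3% of 48 in the anti-IL-2 library and 64.3% of 42 in the tacrolimus library. Non-dividing cells with both Cd4 and a Cd8 gene carried Ccnd2 at 52.3% of 44 anti-IL-2 cells (interval 36.7 to 67.5%) and 65.0% of 20 tacrolimus cells (interval 40.8 to 84.6%). T cells with neither were few, and 8 of the 12 non-dividing tacrolimus ones had Ccnd2 (66.7%, interval 34.9 to 90.1%).

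Set side by side with tacrolimus cells, which were thinned where they were the deeper ones, anti-IL-2 cells carried Il2ra and Ccnd2 less often. Anti-IL-2 cells were not thinned, so depth stayed unequal where they were deeper, which can raise their shares. In the CD8 gate the medians were 15110 anti-IL-2 and 13964 tacrolimus UMIs. Thinning there changed the tacrolimus share of Il2ra only from 41.9% to 41.8%. In the CD4 gate Il2ra was in 9.34% of anti-IL-2 cells (interval 6.25 to 13.3%) and 25.9% of tacrolimus cells (interval 20.96 to 31.4%), a ratio of 0.360 and a difference of -16.6 points (-22.9 to -10.2). CD8-gate cells carried it in 17.5% of anti-IL-2 cells (interval 14.8 to 20.5%) and 41.8% of tacrolimus cells (interval 38.7 to 45.0%), a ratio of 0.420. Ccnd2 was in 29.8% of anti-IL-2 and 49.1% of tacrolimus CD4-gate cells (ratio 0.606, -19.3 points, -27.2 to -11.2) and in 24.4% and 41.0% of CD8-gate cells (ratio 0.594). Il2 was in 3.11% and 1.88% of CD4-gate cells, a difference of 1.23 points (-1.65 to 4.21) within counting error. Of 915 genes tested in the CD4 gate, 35.5% were lower by 1.5-fold with intervals apart, as were 11.4% of 928 in the CD8 gate, so in the CD4 gate the direction was a common one. Where the integration shift was left in the anti-IL-2 values, the Ccnd2 difference in the CD4 gate was -2.03 points (-10.4 to 6.36), so this difference rests on the removal of the shift. In these values the CD8-gate difference was -7.07 points for Ccnd2 (-11.8 to -2.30) and -14.5 points for Il2ra (-19.1 to -9.88). At least 1 pancreatic acinar gene was in 7.38% of anti-IL-2 and 73.3% of tacrolimus CD8-gate cells, with like shares in the CD4 gate (8.997% and 71.0%), and its part in these differences was not tested.

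Because the treatments also differed in their shares of dividing cells, the shares of Il2ra and Ccnd2 were set side by side within each division class. In each class anti-IL-2 cells had the higher median depth, so little or no thinning took place. The medians were 18465 anti-IL-2 and 14942 tacrolimus UMIs in dividing CD8-gate cells and 11643 and 8294 in non-dividing ones. In the CD4 gate they were 17042 and 13346 in dividing cells and 9528 and 8566 in non-dividing ones. Il2ra was in 22.3% of dividing anti-IL-2 and 44.0% of dividing tacrolimus CD8-gate cells (-21.7 points, -26.7 to -16.5), where 6.62% of 937 genes were lower by the same rule and 5.34% higher. It was in 7.95% and 23.7% of non-dividing CD8-gate cells (-15.8 points, -25.02 to -7.32), where 6.89% of 798 genes were lower and 10.7% higher. In non-dividing CD4-gate cells it was in 6.67% and 22.7% (-16.0 points, -27.2 to -6.46), where 8.91% of 797 genes were lower and 6.27% higher. In dividing CD4-gate cells, with 64 anti-IL-2 cells, it was in 18.8% and 29.4%, and the interval of the difference reached from -21.6 to 2.54 points, with 2.54% of 906 genes lower and 1.88% higher. Il2ra was thus lower beyond counting error in 3 of the 4 classes.

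Ccnd2 was in 24.4% of dividing anti-IL-2 and 42.9% of dividing tacrolimus CD8-gate cells (-18.5 points, -23.6 to -13.2) and in 28.0% and 51.5% of non-dividing CD4-gate cells (-23.5 points, -36.3 to -10.4). In non-dividing CD8-gate cells the shares were 24.3% and 25.4%, and the difference of -1.16 points had an interval of -11.5 to 8.47. Thinning left the tacrolimus share of this class as it was, and the anti-IL-2 cells were deeper (medians of 11643 and 8294 UMIs). The difference at equal depth was therefore not measured there. In dividing CD4-gate cells they were 35.9% and 51.1% (-15.2 points, -28.8 to -0.440).

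Of the measured genes around IL-2 signalling, most of those known to be lowered by IL-2 were in more anti-IL-2 cells in the same comparison. In the CD4 gate 5 of the 6 tested were in more anti-IL-2 cells and 0 in fewer, beside 8.42% of all genes higher, and the list's median log2 ratio of shares was 1.67, beside -0.376 for all genes. Tcf7 was in 68.2% of anti-IL-2 and 14.9% of tacrolimus CD4-gate cells, and Ccr7, a homing receptor of naive cells, in 25.6% and 5.21%. In the CD8 gate 4 of the 5 tested were in more anti-IL-2 cells and 1, the IL-7 receptor gene Il7r, in fewer (24.7% and 37.7%), beside 7.11% of all genes higher and 11.4% lower. Within division classes, where anti-IL-2 cells had the higher median depth, Tcf7 was in more anti-IL-2 cells in all 4 classes. Ccr7 was so in all but dividing CD4-gate cells. Of 13 STAT5 targets in the CD4 gate, 3 were in more anti-IL-2 cells (Bcl2, Pim2 and Socs1) and 5 in fewer (Gzmb, Prf1, Bhlhe40, Il12rb2 and Socs2), beside 8.42% of all genes higher and 35.5% lower, so the count of lower targets was near that of all genes. In dividing CD4-gate cells 0 of these 5 was called and in non-dividing ones 4 were (all but Socs2). Bcl2 was in more anti-IL-2 cells of both classes, Socs1 of non-dividing cells and Pim2 of neither. Of all genes, 2.54% were lower and 1.88% higher in dividing CD4-gate cells, and 8.91% lower and 6.27% higher in non-dividing ones. The 5 were those already called lower in the whole gate, which holds the same cells. Among CD8-gate cells 1 was in more (Bcl2, 49.7% and 17.2%) and 3 in fewer (Il12rb2, Socs2 and Cish), beside 7.11% and 11.4% of all genes. Socs2, a feedback inhibitor, was in 0.418% of anti-IL-2 and 5.91% of tacrolimus CD8-gate cells. Among 7 tested G1 regulators other than Ccnd2, Ccne1, Cdkn1a and Cdkn2c were in fewer anti-IL-2 CD4-gate cells, where 35.5% of all genes were lower. In dividing and in non-dividing CD4-gate cells 0 of these 3 was called: Cdkn2c was in 57.8% of anti-IL-2 and 60.7% of tacrolimus dividing cells and in 7.11% and 7.36% of non-dividing cells. Cdkn1a was in fewer anti-IL-2 CD8-gate cells (4.32% and 9.32%), and 0 of the 7 was in more in either gate.

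Il2ra and Ccnd2 were next compared in the same cells. Ccnd2 was in 17 of 27 Il2ra-positive anti-IL-2 CD4-gate cells (63.0%), against 25.5% of Il2ra-negative cells given the same mix of depth and division classes, a ratio of 2.47. In tacrolimus CD4-gate cells it was in 65.8% of 79 positive and 47.7% of negative cells (log2 ratio 0.463). For CD8-gate cells the shares were 34.1% of 126 positive and 26.01% of negative anti-IL-2 cells, and 52.2% of 404 positive and 44.1% of negative tacrolimus cells. The ratio passed 1.5-fold in the anti-IL-2 CD4 gate and in none of the other 3. Positive cells were deeper even so: their median was 17041 against 10118 UMIs in the anti-IL-2 CD4 gate and 17947 against 12070 in the tacrolimus CD8 gate, and comparing within 3 depth classes does not make depth fully equal.

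By the rule of a 1.5-fold ratio outside the counting interval, among genes in at least 5% of a gate, 83 genes (9.76% of 850) were in more and 13 (1.53%) in fewer Il2ra-positive anti-IL-2 CD4-gate cells. The numbers were 50 (5.65% of 885) and 16 (1.81%) in the anti-IL-2 CD8 gate, 66 (7.55% of 874) and 15 (1.72%) in the tacrolimus CD4 gate, and 91 (10.3% of 880) and 8 (0.909%) in the tacrolimus CD8 gate. The medians over all genes tested were between 0.0388 and 0.0831 (log2). The tacrolimus gates shared 34 of the higher genes, which is 51.5% of the CD4 list and 37.4% of the CD8 list. The anti-IL-2 gates shared 12, 14.5% of the CD4 list and 24.0% of the CD8 list.

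In anti-IL-2 CD4-gate cells the largest differences in share were those of Gzmb, which encodes granzyme B (96.3% of Il2ra-positive and 51.3% of negative cells), Ergic1, a gene of the early secretory pathway (55.6% and 11.2%), and Bhlhe40, a transcription factor of cytokine-producing T cells (81.5% and 38.1%). Next came Srm (spermidine synthase), Shmt2 (mitochondrial serine hydroxymethyltransferase), Serpina3g, Ccnd2, Il12rb2 (a chain of the IL-12 receptor, 59.3% and 22.8%), Tnfrsf9 (the costimulatory receptor 4-1BB) and Nrp1. On the other side stood Tcf7 (29.6% and 63.4%), Fam101b (0% and 33.2%), the interferon factor Irf7 (33.3% and 63.6%), Pydc4 and Sepp1. With 27 positive cells, the interval of the positive share of Tcf7 ran from 13.8 to 50.2%.

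In the anti-IL-2 CD8 gate the largest differences were smaller. Bhlhe40 was in 77.8% of Il2ra-positive and 57.7% of negative cells, Havcr2, which encodes the inhibitory receptor TIM-3, in 67.5% and 48.1%, and Ifng, the interferon-gamma gene, in 51.6% and 34.8%. Gadd45b, Lap3, Noa1, Ccdc86, Gldc (glycine decarboxylase), Aim2 and Gcsh (a subunit of the same glycine cleavage system) followed. Of these 10 only Gadd45b, Ccdc86 and Aim2 passed 1.5-fold. Tcf7 (11.9% and 27.3%), Rgs10, Nsg2 (2.38% and 16.0%), Eomes, a factor of memory CD8 cells (30.95% and 43.6%), and Trp53inp1 were the lowest.

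In tacrolimus CD4-gate cells Ergic1 had the largest difference (54.4% of Il2ra-positive and 27.6% of negative cells), followed by Tnfrsf4 (70.9% and 45.1%), Dnph1, Ifitm2, Furin, Ruvbl2, Umps (pyrimidine synthesis), Gcsh, Slc7a5, which encodes the light chain of a large amino acid transporter (43.0% and 24.4%), and Noa1. Gzma, which encodes granzyme A, was the lowest (31.6% and 50.6%), with Irf7 (26.6% and 43.1%), Tcf7 (5.06% and 20.2%), and Slfn1 and Ly6c2 came next without passing 1.5-fold. In the tacrolimus CD8 gate Slc7a5 (51.2% and 25.7%), Srm (54.0% and 29.1%), Ndufaf4, Gldc, Umps, Noa1, Cdk6, Mettl1 (a tRNA methyltransferase, 33.2% and 13.5%), Nop16 and Wdr74 were the highest. Ccng2, a cyclin of cells that have stopped cycling, was the lowest (37.6% and 57.2%), and Wdr95, Neil3, Ccnf (cyclin F, 45.8% and 57.7%) and Lgals9 followed without passing 1.5-fold.

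Across both libraries and gates 6 genes were called higher with Il2ra every time, namely Fam213a, Ifitm2, Ifrd2, Igfbp7, Mettl1 and Shmt1, of which 3 are given here by a choice made after their values were seen. Ifitm2, an interferon-induced membrane protein, was in 48.1% of positive and 14.9% of negative anti-IL-2 CD4-gate cells and in 19.8% and 9.68% of anti-IL-2 CD8-gate cells. In tacrolimus cells it was in 41.8% and 18.0% in the CD4 gate and 31.7% and 14.3% in the CD8 gate. Mettl1 was in 25.9% and 9.13%, 30.2% and 16.0%, 24.1% and 11.2%, and 33.2% and 13.5% of positive and negative cells in the same 4 sets. Shmt1, the cytosolic serine hydroxymethyltransferase gene, was in 25.9% and 9.44%, 33.3% and 20.1%, 24.1% and 13.7%, and 33.7% and 20.6%. Among the genes lower with Il2ra, 0 were called in all 4 sets and 1, Tcf7, in 3, being seen in 3.83% or fewer of either kind of tacrolimus CD8-gate cell.

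Of the STAT5 targets, 5 of the 12 tested were in more Il2ra-positive anti-IL-2 CD4-gate cells (Cish, Bhlhe40, Gzmb, Tnfrsf4 and Il12rb2) and 0 in fewer, with a list median of 0.401 beside 0.0831 for all genes. In anti-IL-2 CD8-gate cells 0 of 11 passed in either direction (median 0.148, beside 0.0806). In tacrolimus cells Cish and Tnfrsf4 were the 2 of 13 that were higher in the CD4 gate (median 0.253, beside 0.0388) and likewise in the CD8 gate (median 0.320, beside 0.0554). The shares of all genes called higher in these sets were 9.76% and 5.65% in the anti-IL-2 CD4 and CD8 gates and 7.55% and 10.3% in the tacrolimus CD4 and CD8 gates, so 2 of 13 is little above them. Cish, a feedback inhibitor of STAT5 signalling, was in 22.2% of positive and 5.87% of negative anti-IL-2 CD4-gate cells, 16.5% and 7.16% of tacrolimus CD4-gate cells and 8.91% and 5.72% of tacrolimus CD8-gate cells. Tnfrsf4 was in 74.1% and 47.7%, 70.9% and 45.1%, and 28.0% and 10.9% of the same sets. Bcl2, an anti-apoptotic gene, passed in 0 of the 4 sets, as did Myc, Pim2, Socs1, Prf1, Ctla4 and Icos.

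Genes known to be lowered by IL-2 had negative list medians in 3 of the 4 sets, where the medians over all genes tested were between 0.0388 and 0.0831. In the anti-IL-2 CD4 gate 2 of 6 were in fewer positive cells (Tcf7, and Il6ra at 7.41% and 24.9%), beside 1.53% of all genes, with a list median of -1.14. In the anti-IL-2 CD8 gate 3 of 5 were, among them Tcf7 and Ccr7 (1.59% and 11.1%), beside 1.81% of all genes, with a median of -1.17. In the tacrolimus CD4 gate 1 of 5 was (Tcf7), beside 1.72% of all genes, and the median was -1.25. In the tacrolimus CD8 gate only 2 reached the minimum share, and Il6st was in more positive cells (9.16% and 5.59%), where 10.3% of all genes were. Il7r, the 1 measured gene besides Il2ra of the IL-2 receptor chains and receptors with the common gamma chain, passed in 0 of the 4 sets.

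Several cytokine and activation genes were higher with Il2ra, and the difference between gates was not tested. Ccl4 and Ifng were the 2 of 5 cytokine genes higher in anti-IL-2 CD4-gate cells, beside 9.76% of all genes. In tacrolimus CD4-gate cells Ccl3, Ccl4, Il10 and Il21 were the 4 of 8, beside 7.55% of all genes. Il10, an anti-inflammatory cytokine gene, was there in 13.9% of positive and 3.76% of negative cells. In the CD8 gate 0 of 5 passed in anti-IL-2 and 0 of the 3 that reached the minimum share of 5% in tacrolimus cells. Below that minimum, Xcl1 was in 8.66% of positive and 1.64% of negative tacrolimus CD8-gate cells, and Il21 in 10.3% of positive and 3.83% of negative anti-IL-2 CD8-gate cells. Of 9 activation genes, Nr4a1, Nr4a2 and Tnfrsf9 were higher in anti-IL-2 CD4-gate cells, Irf4 in anti-IL-2 CD8-gate cells, Nr4a1, Egr1 and Irf4 in tacrolimus CD4-gate cells, and Nr4a1 in tacrolimus CD8-gate cells (8 tested). In the CD4 gates of anti-IL-2 and tacrolimus cells this is 3 of 9 beside 9.76% of all genes and 3 of 9 beside 7.55%, and in the CD8 gates 1 of 9 beside 5.65% and 1 of 8 beside 10.3%. Below the minimum share, Nr4a3 was in 8.73% of positive and 2.32% of negative anti-IL-2 CD8-gate cells, and Egr1 in 6.68% and 1.94% of tacrolimus CD8-gate cells. Among G1 regulators other than Ccnd2, which is described above, Cdk6, a kinase partner of cyclin D2, was the 1 gene that passed, in the tacrolimus CD8 gate (55.9% and 35.9%). This is 1 of 7 tested there, near the 10.3% of all genes. Of the regulatory T-cell markers, Tnfrsf4 was the 1 that passed, in all sets but the anti-IL-2 CD8 gate, and Ikzf2, Ctla4 and Capg passed in 0 of the 4 sets. This is 1 of 5 tested in each CD4 gate (beside 9.76% of all anti-IL-2 and 7.55% of all tacrolimus genes). In the tacrolimus CD8 gate it is 1 of 4, beside 10.3%, and 1 member says little about so short a list. Of 12 pancreatic acinar genes, 10 reached the minimum share in tacrolimus gates, where 1 was lower in the CD4 gate (Reg2, 10.1% and 19.5%) and 0 differed in the CD8 gate.

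**Figure D5:**
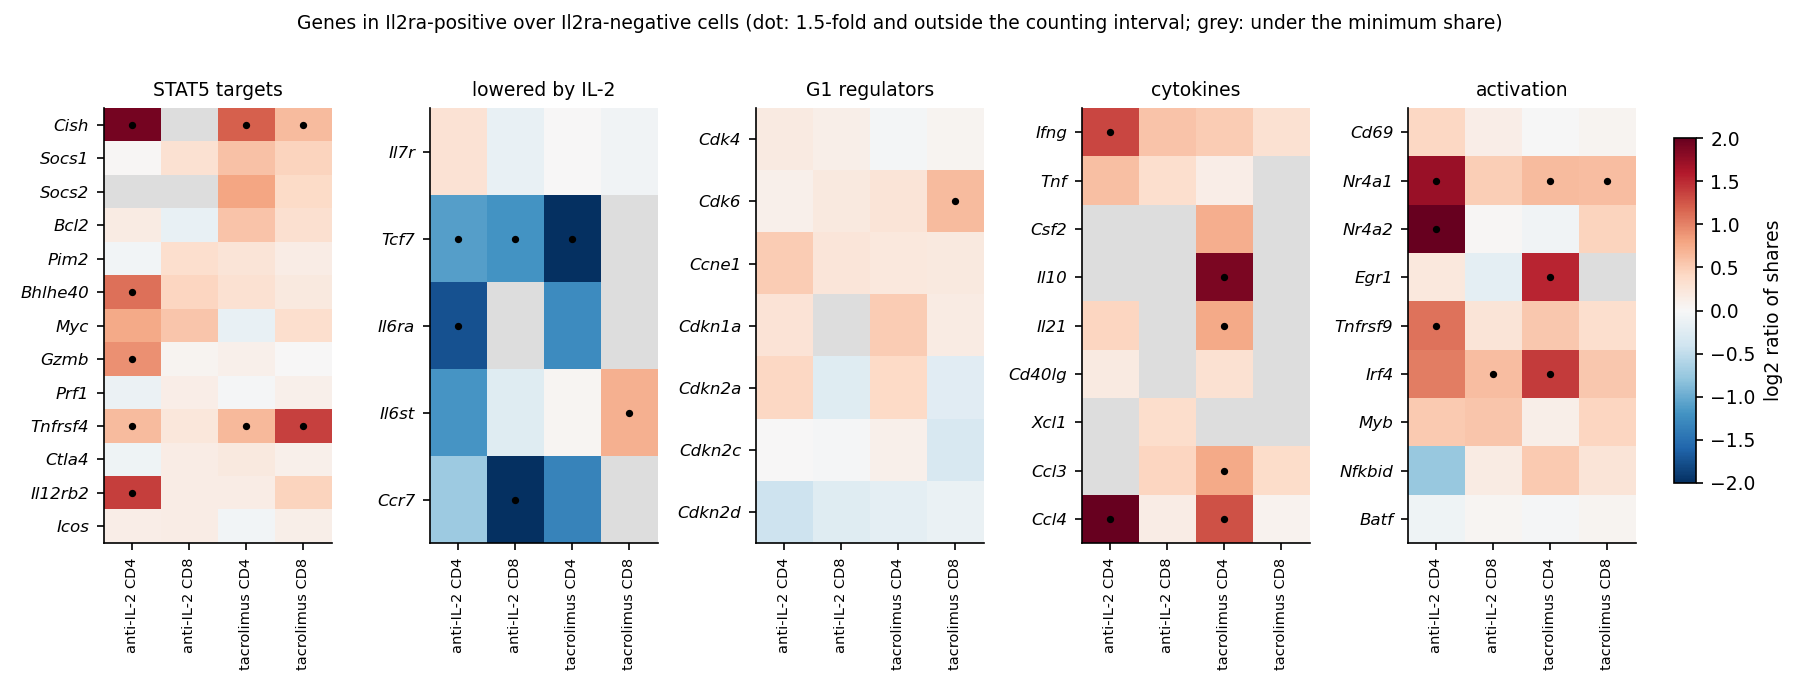
Colours give the log2 ratio of the share of Il2ra-positive cells to that of Il2ra-negative cells with a gene, for members of 5 lists (panels) in 4 sets of cells (columns), with the scale ending at -2 and 2. Dots mark ratios of at least 1.5-fold outside the counting interval, and grey cells were under the minimum share of 5%. Cish has dots in 3 of the 4 columns and Tcf7 has dots in 3, with opposite colours.

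Ccnd2-positive cells were compared with Ccnd2-negative cells in the same way. By the same rule 44 genes (5.18%) were in more and 55 (6.47%) in fewer positive anti-IL-2 CD4-gate cells, and 44 (4.97%) and 7 (0.791%) in the anti-IL-2 CD8 gate. In tacrolimus cells it was 35 (4.0%) and 19 (2.17%) in the CD4 gate and 40 (4.55%) and 2 (0.227%) in the CD8 gate. In the anti-IL-2 CD4 gate Glrx, a glutaredoxin gene (74.4% and 43.4%), Ahnak, Lilr4b, Id2 and Bhlhe40 were the highest and Fam101b (18.6% and 44.3%), Tcf7 and Hmgn1 the lowest. In the anti-IL-2 CD8 gate these were Itgax, which encodes the integrin CD11c (39.4% and 20.6%), Ctla2b, Phlda1, Eomes (49.1% and 34.8%) and Alad, against Ikzf2, Rgs10 and Kif14. Eomes thus lay on the positive side of Ccnd2 and on the negative side of Il2ra in the same cells, and passed 1.5-fold on neither.

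In tacrolimus cells the genes highest with Ccnd2 were Ppa1, Tnfrsf4 (61.0% and 41.6%), Havcr2, Capg and Larp1 in the CD4 gate and Srm (51.4% and 31.7%), Atic (purine synthesis), Apex1, Mrps28 and Mybbp1a in the CD8 gate. Among the lowest were Nsg2 and Hist1h1b (a histone H1 gene, 44.5% and 57.9%) in the CD4 gate and Sgol2a, Ccng2 and Kif2c in the CD8 gate. Of these tacrolimus genes, Larp1, Nsg2, Srm and Apex1 passed 1.5-fold.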

How the data were processed

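Single-cell RNA-seq (10x Genomics 5' chemistry, per the labels' protocols) was available as 1 file of 2000 genes per treatment. Cell Ranger 3.1.0, Seurat and mm10 are named in the submitters' processing notes, and the selection of genes and cells is not given in the sources. The deposited values are natural log values. The authors scaled each tacrolimus cell to 50000, as the values themselves show, since all turned into whole UMIs within 0.001. The deposited anti-IL-2 values were batch-integrated (13.9% lie below 0), so each cell's total and a shift shared by its 30 nearest cells were fitted. After the shift was removed, a value above 0.5 of the natural log value of 1 UMI in that cell was a detection. This limit lies below 0.5 UMI. Of 382 anti-IL-2 cells whose total could be read directly, 91.1% had a fitted total within 1.25-fold, with a median ratio of 1.01. The recovery was tested on simulated data, where shares came out well and levels too low, so mean levels are not compared between libraries. Numbers of anti-IL-2 cells with several UMIs of a gene may be too low for the same reason. The tacrolimus file repeats 308 anti-IL-2 columns, which were skipped.

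T cells needed 1 UMI of a T, CD4 or CD8 marker and fewer than 3 detected markers of other lineages. Of the lineage markers, 4 (Cd68, Cst3, Itgax and Xbp1) were seen in over 15% of cells and were left out of this rule after the data were seen. No doublet caller was run, and cells with Cd4 and a Cd8 gene formed a class of their own. Median depth was 13131 UMIs in 1247 kept anti-IL-2 cells and 13254 in 1475 kept tacrolimus cells. Treatments were compared with tacrolimus cells thinned to the anti-IL-2 depths where they were the deeper ones. Anti-IL-2 cells were not thinned, so depth stayed unequal where these were deeper. Gates and division classes were compared at 7320 UMIs in tacrolimus cells (shallower cells left out) and over 3 depth classes in anti-IL-2 cells. Il2ra-positive and Il2ra-negative cells were compared within depth and division classes. A gene was called at 1.5-fold with the other share outside the counting interval (between treatments, with intervals apart), among genes in at least 5% of cells. With 1 library per treatment no test was run. Named genes are the 3 members, members of the gene lists, and per library and gate the 10 highest and 5 lowest differences in share with Il2ra (5 and 3 with Ccnd2). The members and lists were chosen with earlier results of these data known. Alternatives changed the detection limit, the shift, the totals, the depth handling, the division and gate limits, the strata and the filters. Python 3.11.15, numpy 2.4.6, pandas 2.3.3, scipy 1.17.1 and numba 0.67.0 were used. Results for some genes that the naming rule covers are not reported here.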

Additional observations from a re-analysis of the deposited data

How the results depend on the processing

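No paired analysis was possible because each treatment had 1 library and no test was run. Over 14 alternative settings, 26 results were recomputed 186 times: 159 stayed within their spread or within 1.5 times of a count, some with a sign that changed inside counting error, 26 moved by more and 1 reversed; the causes were not tested. Differences in share are in percentage points. Counting only cells with at least 2 UMIs gave differences between treatments of -5.86 (Il2ra, CD4 gate), -11.7 (Il2ra, CD8 gate) and -9.43 (Ccnd2, CD8 gate), and differences between gates for Il2ra of 4.48 (anti-IL-2) and -1.28 (tacrolimus). Recovered anti-IL-2 UMI numbers may be too low, which bears on these differences between treatments. With the integration shift left in, the differences between treatments were -14.5 (Il2ra, CD8 gate), -2.03 (Ccnd2, CD4 gate) and -7.07 (Ccnd2, CD8 gate). With directly readable totals only, they were -29.4 (Il2ra) and -10.3 (Ccnd2) in the CD8 gate. Without thinning or standardising, the Il2ra difference between gates was -8.21 (anti-IL-2) and -14.3 (tacrolimus). By division, Il2ra then differed by 12.1 (anti-IL-2, CD4 gate), 14.4 (anti-IL-2, CD8 gate) and 20.7 (tacrolimus, CD8 gate), and Ccnd2 by -0.691 (tacrolimus, CD4 gate), 18.0 (tacrolimus, CD8 gate) and, reversed, 0.158 (anti-IL-2, CD8 gate). With dividing set at 10% of division genes, the tacrolimus CD8-gate difference of Il2ra was -7.13. Of genes with Il2ra, 8 were lower in the anti-IL-2 CD4 gate with no minimum of detected genes. With no minimum share, 149 were higher in the anti-IL-2 CD8 gate, 171 in the tacrolimus CD4 gate and 298 in the tacrolimus CD8 gate, where 37 were lower. At a minimum share of 10%, 2 were lower in the tacrolimus CD8 gate. With all lineage markers in the T-cell rule, 33 were higher in the tacrolimus CD4 gate (66 by the main rule) and 16 lower in the tacrolimus CD8 gate (8 by the main rule). That rule was the one first planned and keeps fewer cells, while the main rule was set after the data were seen. Il2, with 11 and 8 T cells, and dividing anti-IL-2 CD4-gate cells, of which there were 64, are limited most by cell number.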
